A study of Mus musculus with 23 samples.

Results

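The late part of muscle differentiation was compared between genotypes in C2C12 cells, an established mouse myoblast line. For each gene the question was whether its change from day 3 to day 6 differed between cells labelled Runx1KO (KO) and control cells (WT). The members were the 12 libraries of those days, of 23 libraries in the series, with 3 libraries in each of 4 groups. The groups were control on day 3, Runx1KO on day 3, control on day 6 and Runx1KO on day 6. All 4 groups had been moved from growth medium with 20% FBS to differentiation medium with 2% horse serum, and RNA was selected for poly(A) tails before sequencing. Sample titles give the last time as day 6, whereas the series text gives day 5; the titles were followed. The labels state neither how Runx1 was disrupted nor whether the KO cells are a single clone, and they do not say that replicates came from separate cultures. P-values therefore measure the spread between libraries of a group, estimated over all 23 libraries, and this spread may be technical. A difference between lines cannot be told apart from a difference due to Runx1.

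Serum withdrawal makes myoblasts leave the cell cycle, switch on the myogenic factor Myog, fuse, and fill with sarcomeres, the repeated actin and myosin units that contract. Late steps add the membrane system that couples excitation to calcium release, and the metabolic enzymes of working muscle. Runx1 is a DNA-binding transcription factor of the Runt family that is expressed in myoblasts and in injured or denervated muscle. Cells can also turn on interferon-stimulated genes, a set of antiviral genes switched on through interferon receptors, and a stress program run by Atf4 when amino acids or protein folding capacity run short.

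Levels are given as CPM, the estimated count relative to the library's size, which was first scaled by TMM to correct for differences in RNA composition. The total estimated count was between 22277369 and 23684077 in the 12 libraries, so depth was close to even. Replicate 1 of labelled KO on day 3 stood apart from its group in several lists described below. Over all genes it did not: its highest correlation within the group was 0.9902, against 0.9902 and 0.9899 for replicates 2 and 3. It was the highest of the 3 for 31 of 38 sarcomere, 20 of 23 excitation-contraction coupling and 40 of 49 interferon-response genes, and for 0 of 25 DNA replication and 0 of 28 mitosis genes. Without it the higher calls among sarcomere, coupling and interferon-response genes were 21, 15 and 35, and the lower calls among replication and mitosis genes 24 and 23, against 18, 14, 33, 24 and 21 with it. The targeted gene was looked at before the others. Runx1 read 153, 148 and 145 CPM in WT and 249, 199 and 203 CPM in labelled KO on day 3. Runx1 then read 146, 148 and 165 CPM in WT and 297, 319.7 and 315 CPM in labelled KO on day 6. Labelled-KO values of Runx1 lay above all WT values on both days. Runx1 was thus not lower in the libraries labelled KO, and its genotype difference grew by 0.48 (SE 0.12, edgeR adjusted p = 0.00826). A count per gene does not show which part of the transcript was read, so the names KO and WT below are the submitters' labels. Of the 6 markers of skeletal muscle, Myod1, Des, Cdh15, Chrna1, Acta1 and Myog, all were detected, and their summed level was 3830.1 to 3978 CPM in WT and 5460.3 to 7698 CPM in labelled KO on day 3, and 3528 to 3769 and 10423 to 12611 CPM on day 6. The leukocyte marker Ptprc reached at most 1 count and the macrophage marker Adgre1 had 0 counts in all 12 libraries. The summed immune markers were 2.7 to 3.6 CPM in WT and 1.7 to 2.5 CPM in labelled KO on day 3, and 4.9 to 8.2 and 10.6 to 12.6 CPM on day 6, and the rise in labelled KO was carried by Cd68, a lysosomal protein of macrophages that other cells also make (step difference 1.38, SE 0.42, edgeR adjusted p = 0.0348; the call held among the fits that left out 1 of the 12 libraries, called leave-outs below, only without a replicate 1). The fibroblast markers summed to 276 to 293 CPM in WT and 256 to 278 CPM in labelled KO on day 3, and 303 to 343 and 524 to 628 CPM on day 6, with Ly6a taking most of the rise. Most members did not follow the sum. Of the 5 tested, 4 were called lower and 1 higher in labelled KO on day 3 (median log2 difference -1.7). On day 6, 2 were lower and 1 higher (median -0.67). Over all genes 19.2% were lower on day 3 and 20.8% on day 6. The part of the immune or fibroblast markers in the results below was not tested.

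The difference of differences, called here the step difference, is the log2 change from day 3 to day 6 in labelled KO less that in WT. It was tested for 14187 genes with edgeR's quasi-likelihood test and Benjamini-Hochberg adjustment at 0.05. It passed for 1753 genes (12.4% of those tested), with a higher step in labelled KO for 903 (6.36%) and a lower one for 850 (5.99%). These shares are the background for the counts of called list members below. The late step itself was called for 1389 genes in WT (9.79%), of which 691 rose (4.87%) and 698 fell (4.92%). In labelled KO it was called for 5865 (41.3%), with 2862 rising (20.2%) and 3003 falling (21.2%). Of the 903 genes with a higher step, 737 rose in labelled KO while their WT step was not called, 121 rose in both, and 19 fell in WT alone. Of the 850 with a lower step, 573 fell in labelled KO while their WT step was not called, 224 fell in both, and 21 rose in WT alone. The median step difference over all tested genes was -0.02. Under RLE scaling 1072 genes were higher and 664 lower, so the share of higher calls was 61.8% in place of 51.5%. Libraries weighed on these counts: without replicate 3 of labelled KO on day 3 there were 1125 calls, with 512 lower, and without replicate 3 of WT on day 3 there were 565 lower. Without replicate 2 of labelled KO on day 1, which is outside the contrast but enters the shared estimate of spread, there were 2837 (1444 higher and 1393 lower). The WT step was called for 762 genes without WT day 6 replicate 1, 778 without WT day 3 replicate 2 and 812 without WT day 3 replicate 1, against 2271 without that day 1 library.

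Some genes diverged late and about as many converged. The genotypes differed in 6127 genes on day 3 (43.2%) and in 6082 on day 6 (42.9%), and each of the 1753 genes was placed by its calls on those days. A gap opened for 487 genes that were not called on day 3 and were on day 6 (27.8% of the 1753), and widened for 332 called on both days with the same sign (18.9%). It narrowed for 209 (11.9%), and closed, meaning called on day 3 and no longer on day 6, for 573 (32.7%). Another 127 genes switched sign between called differences (7.24%), and 25 were called on neither day (1.43%). Widening was mostly upward, with 266 genes gaining a higher step and 66 a lower one. Closing was mostly downward, with 382 genes having a lower step in labelled KO and 191 a higher one. Without replicate 3 of labelled KO on day 3 the counts for widened, narrowed, closed and switched were 219, 134, 331 and 83, and without replicate 2 of labelled KO on day 6 opened and narrowed were 321 and 133. Without WT day 3 replicate 3 closed was 380. Without the day 1 library named above, opened, widened, narrowed, closed and switched were 816, 506, 359, 880 and 237.

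**Figure D1:**
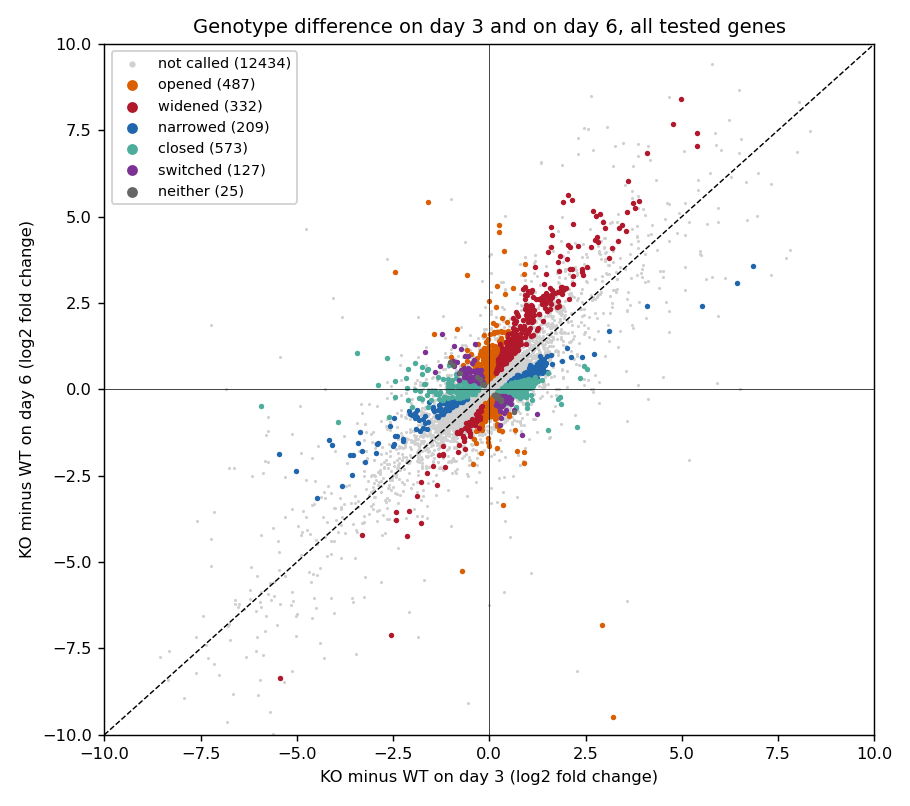
Each point is 1 of the 14187 tested genes, with the log2 fold change of labelled KO over WT on day 3 on the horizontal axis and on day 6 on the vertical axis; colours mark how the 1753 called genes were placed. Points on the dashed diagonal had the same difference on both days, red points above it on the right (widened) reach higher on day 6, and green points lie near 0 on day 6; 4 genes lie beyond the axes.

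Sarcomere genes diverged. Of 38 tested, 18 had a higher step in labelled KO and 2 a lower one, and 17 of them widened. Their median genotype difference was 1.38 on day 3 and 2.1 on day 6 (log2), and the median step difference 0.88, against -0.02 over all genes. The summed level of the list was 4970.2 to 5244 CPM in WT and 7430.5 to 11752 CPM in labelled KO on day 3, and 4624 to 4868 and 16133 to 20376 CPM on day 6, with replicate 1 the highest of labelled KO on day 3; without that library the median step difference was 1.15. In bulk RNA, a different number of muscle cells and a different amount of these transcripts per cell cannot be told apart. Acta1 encodes skeletal alpha-actin, the core of the thin filament. Acta1 read 1129.7, 1139 and 1246 CPM in WT and 3234, 1772 and 1931 CPM in labelled KO on day 3. Acta1 then read 1153, 975 and 1001 CPM in WT and 6046, 7429.7 and 7381 CPM in labelled KO on day 6. Labelled-KO values of Acta1 lay above all WT values on both days. For Acta1 the step difference was 1.76 (SE 0.31, edgeR adjusted p = 0.000577), and Acta1 rose in labelled KO while the WT step, -0.17, was not called. The cardiac actin gene Actc1, an early isoform in developing muscle, widened too. Actc1 read 216, 228 and 248 CPM in WT and 1493, 649.7 and 693 CPM in labelled KO on day 3. Actc1 then read 60.6, 45.6 and 55.5 CPM in WT and 873, 1008 and 1039 CPM in labelled KO on day 6. Labelled-KO values of Actc1 lay above all WT values on both days. Actc1 fell in WT, while its step in labelled KO, 0.04, was not called; labelled-KO day 3 replicate 1 lay above all 3 labelled-KO values of day 6. The step difference was 2.14 (SE 0.33, edgeR adjusted p = 0.000172). The troponins Tnnt3, Tnnc2, Tnni2 and Tnnc1, which set the calcium response of the thin filament, widened with step differences of 1.15, 1.22, 1.36 and 1.25. Ttn and Neb, which encode giant filament proteins, widened by 0.88 and 1.27, and the M-band genes Myom1 and Myom2 by 1.18 and 1.28.

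A pair of adult fast myosin heavy chain genes went the other way on the log2 scale. Myh1 read 11, 12 and 14 CPM in WT and 62.2, 62.2 and 71.3 CPM in labelled KO on day 3. Myh1 then read 100.4, 66.1 and 112 CPM in WT and 147, 199 and 194 CPM in labelled KO on day 6. Myh1 rose in both genotypes and by more in WT, so a gap of 2.4 narrowed to 0.95; the step difference was -1.45 (SE 0.25, edgeR adjusted p = 0.000555). Labelled-KO values of Myh1 lay above all WT values on both days. Myh2 went from 0.347 ± 0.0863 to 1.97 ± 0.625 CPM in WT and from 1.95 ± 0.443 to 3.13 ± 0.461 CPM in labelled KO (mean ± SD, n = 3), with a step difference of -1.8 (SE 0.47, edgeR adjusted p = 0.0132); it was not called with limma on log2(TPM + 1). The embryonic and perinatal chains Myh3 and Myh8 were not called, at step differences of 0.79 and -0.73.

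**Figure D2:**
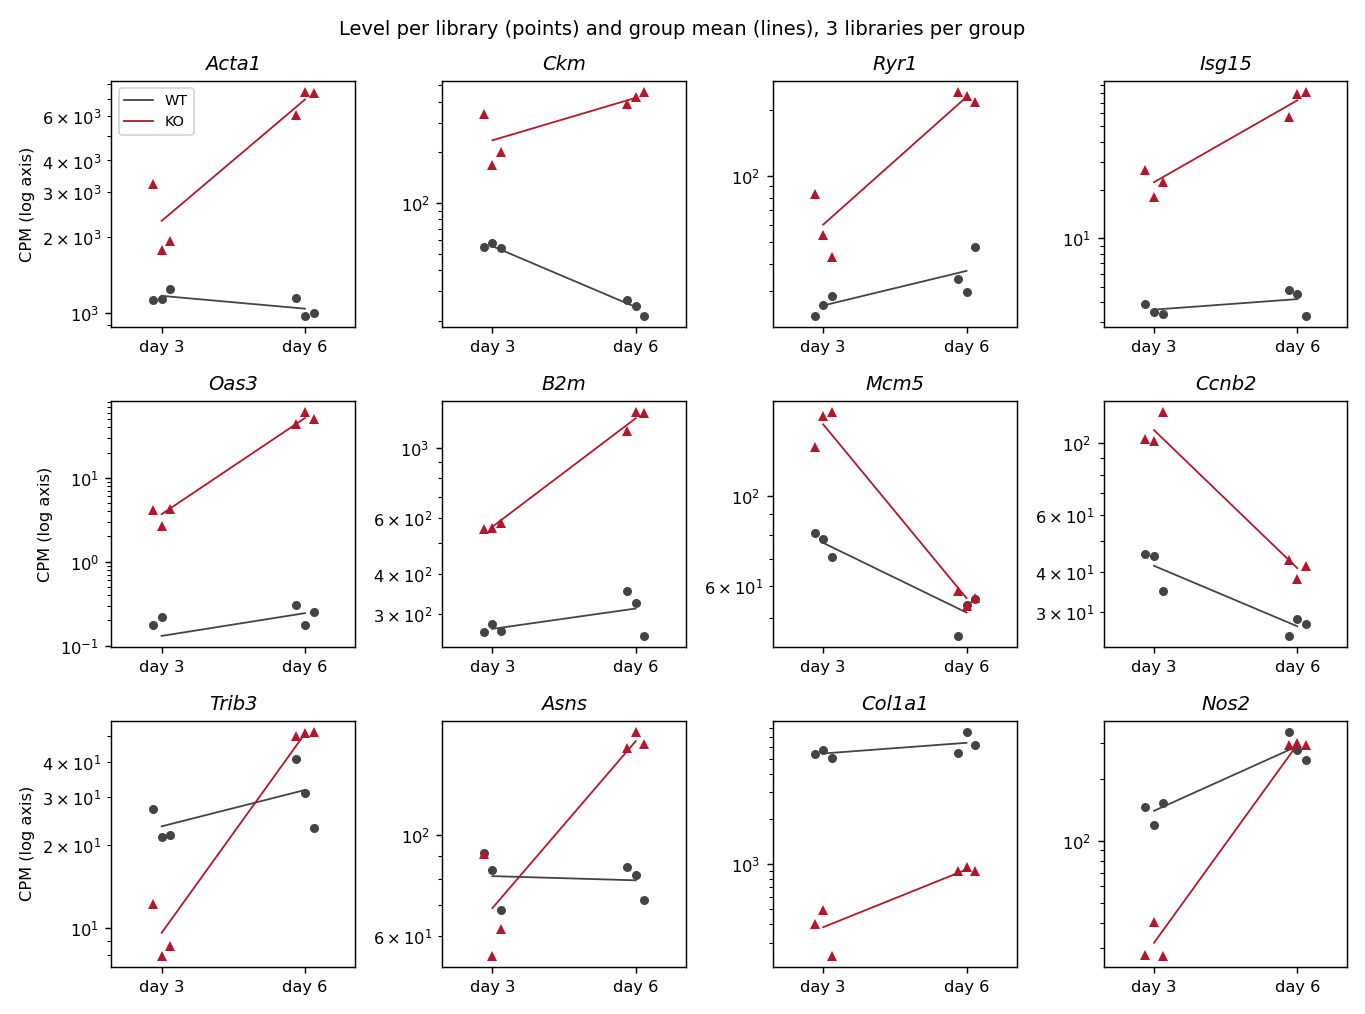
Level of 12 genes in each library (CPM, log axis) on day 3 and day 6, with WT in grey circles, labelled KO in red triangles and lines through the group means; 1 WT library of day 3 with 0 counts of Oas3 is not drawn. Acta1, Ckm, Ryr1, Isg15, Oas3 and B2m spread apart, Mcm5 and Nos2 meet on day 6, Ccnb2 and Col1a1 come closer, Asns opens and Trib3 crosses.

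Calcium-release genes diverged as well. Of 23 excitation-contraction coupling genes, 14 had a higher step and 0 a lower one (1 lower without labelled-KO day 6 replicate 3 or without the day 1 library), with 10 widened and 4 opened. The median difference was 0.79 on day 3 and 1.46 on day 6. Ryr1 encodes the calcium release channel of the sarcoplasmic reticulum. Ryr1 read 23.1, 25.9 and 28.5 CPM in WT and 83.4, 54.2 and 43.1 CPM in labelled KO on day 3. Ryr1 then read 34.2, 29.6 and 47.5 CPM in WT and 241, 231 and 216 CPM in labelled KO on day 6. Labelled-KO values of Ryr1 lay above all WT values on both days. The step difference of Ryr1 was 1.4 (SE 0.24, edgeR adjusted p = 0.000548). Cacnb1, the beta subunit of the voltage sensor, was not called between genotypes on day 3 and was on day 6. Cacnb1 read 38.4, 38.5 and 43.6 CPM in WT and 59.1, 39 and 41 CPM in labelled KO on day 3. Cacnb1 then read 61.4, 55.6 and 53.2 CPM in WT and 158, 188 and 187 CPM in labelled KO on day 6. The groups overlapped on day 3 and labelled KO lay above WT without overlap on day 6. For Cacnb1 the step difference was 1.44 (SE 0.20, edgeR adjusted p = 7.4e-05). Atp2a2, the calcium pump of slow muscle, had a step difference of 1.3 (SE 0.13, edgeR adjusted p = 9.93e-06), going from 261 ± 10.8 to 269 ± 26.5 CPM in WT and from 418 ± 69.3 to 1065 ± 59.2 CPM in labelled KO. The pore subunit Cacna1s and the junctophilins Jph1 and Jph2, which tether the paired membranes, had step differences of 1.02, 0.92 and 1.04.

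Some genes of muscle energy supply diverged too. Of 22 tested, 6 had a higher step (27.3%, against 6.36% of all genes) and 1 a lower one (4.55%, against 5.99%). Ckm read 54.6, 57.4 and 53.9 CPM in WT and 338, 167 and 200.3 CPM in labelled KO on day 3. Ckm then read 26.4, 24.5 and 21.3 CPM in WT and 385, 424 and 454 CPM in labelled KO on day 6. The muscle creatine kinase gene Ckm fell in WT and rose in labelled KO, with steps of -1.2 in WT and 0.84 in labelled KO and a difference of 2.04 (SE 0.25, edgeR adjusted p = 3.83e-05). Labelled-KO values of Ckm lay above all WT values on both days. Mb, the oxygen-binding myoglobin, and Cox6a2, a muscle isoform of a respiratory subunit, had step differences of 1.62 and 1.41. The general glycolytic gene Gapdh was not called at a step difference of 0.31 (SE 0.16, edgeR adjusted p = 0.228). Ckmt2, the mitochondrial creatine kinase, was the lower member: WT libraries had 0 or 1 counts on day 3 and 32 to 64 on day 6, and labelled KO went from 31 to 37 counts to 180 to 286. Labelled KO was at least 12.1-fold higher on day 3, against a floor of 3 counts per library; the call was lost without WT day 3 replicate 1, and the sign turned with limma on log2(TPM + 1). None of the 71 respiratory chain genes was called in either direction by edgeR or DESeq2 (3 had an unadjusted edgeR p under 0.05), with a median step difference of -0.01; the abundant ATP synthase subunit gene Atp5b was at a step difference of 0.06 (SE 0.09, edgeR adjusted p = 0.728).

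Muscle regulators were called in both directions. Of 16 muscle regulators, 3 had a higher step and 3 a lower one, 18.8% each against 6.36% and 5.99% of all genes. Without the day 1 library 6 were lower. Myog read 173, 158 and 173 CPM in WT and 724, 366 and 389 CPM in labelled KO on day 3. Myog then read 168, 142 and 137 CPM in WT and 793, 956 and 977 CPM in labelled KO on day 6. Myog, the factor that commits myoblasts to differentiate, lay above WT in labelled KO without overlap on both days. For Myog the step difference was 1.06 (SE 0.35, edgeR adjusted p = 0.047), and the call was lost with DESeq2 and with limma on log2 TPM. It held among the 12 leave-outs only without replicate 1 of WT on day 6 or of labelled KO on either day. Mef2d and Mef2a, partners of the myogenic factors, had step differences of 0.49 and 0.40. Only 1 of the 3 higher calls was made in the 12 leave-outs other than those of replicate 1 of labelled KO on either day or WT day 6 replicate 1 or 3. Msc, a repressor of myogenic factors, narrowed: it went from 3.55 ± 1.03 to 2.43 ± 0.263 CPM in WT and from 15.4 ± 0.821 to 4.67 ± 0.453 CPM in labelled KO, a step difference of -1.17 (SE 0.27, edgeR adjusted p = 0.00599). Eya1, a transcriptional coactivator in muscle precursors, had a step difference of -0.67, while Myod1 was not called at a step difference of -0.26. Among 12 neuromuscular junction genes 5 had a higher step (41.7%, against 6.36% of all genes), 8 without the day 1 library. They included the receptor subunit Chrna1 (step difference 0.52, SE 0.13, edgeR adjusted p = 0.00919), Ache, the enzyme that clears acetylcholine (step difference 1.11, SE 0.24, edgeR adjusted p = 0.00347), and Agrn, the nerve-derived organiser of the synapse (1.06). Ache switched, with a genotype difference from -0.66 on day 3 to 0.45 on day 6, and was not called with limma on either TPM scale. Of 13 fusion and adhesion genes 3 were higher (23.1%, against 6.36% of all genes) and 2 lower (15.4%, against 5.99%). Without labelled-KO day 3 replicate 1, 5 were higher. Only 1 was lower in the 12 leave-outs other than those of replicate 1 of labelled KO on either day or WT day 6 replicate 1 or 2. The 2 lower became 1 with RLE, DESeq2, the replicate block and limma on either TPM scale, and 3 without the day 1 library. They included the laminin receptor Itga7 (step difference 0.46, SE 0.10, edgeR adjusted p = 0.00401) and the junction gene Jam2 (step difference -0.68, SE 0.13, edgeR adjusted p = 0.00163), and the fusogen genes Mymk and Mymx were not called at step differences of 0.77 and 0.83.

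Promoter windows from RefSeq (assembly GRCm38.p6, 250 bases before to 50 bases after each gene start) were found for 10422 of the 14187 tested genes. Shares here and below are of genes with a window. A gene with several starts had several windows and counted once, if any of them held the letters. The E-box letters CAGCTG, bound by myogenic factors and counted on both strands, were in 12 of the 30 sarcomere genes (40%), against 18.2% of all genes with a window. The RUNX letters TGTGGT were in 10 of the 30 (33.3%) and in 14.9% of all, and another RUNX spelling, TGCGGT, in 3 of the 30 (10%) and in 10.9% of all. Over the 1340 called genes with a window, TGTGGT was in 17.2%, TGCGGT in 11.7% and the Ets letters CCGGAA in 24% (30.5% of all). These are matches of letters and not measured binding.

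Interferon-response genes had the largest median step difference of the 27 lists. Of 49 tested, 33 had a higher step in labelled KO and 0 a lower one, and 32 of the 33 widened. The median genotype difference was 2.4 on day 3 and 3.48 on day 6 (log2), with a median step difference of 1.09. In summed level the list stood at 486 to 502 CPM in WT and 1164 to 1533 CPM in labelled KO on day 3, and 529 to 576 and 3164 to 3955 CPM on day 6. Antiviral effectors, signal carriers and antigen-presenting genes are taken in turn, after the promoters of Isg15 and Oas3.

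The windows of Isg15 (chr4:156200769-156201068, minus strand) and Oas3 (chr5:120777610-120777909, minus strand) are shown because they hold the interferon-stimulated response element core just upstream of the start. The core was searched as GAAA, any 2 bases, GAAA on both strands, and matches are in capitals, with overlapping matches joined.
Isg15: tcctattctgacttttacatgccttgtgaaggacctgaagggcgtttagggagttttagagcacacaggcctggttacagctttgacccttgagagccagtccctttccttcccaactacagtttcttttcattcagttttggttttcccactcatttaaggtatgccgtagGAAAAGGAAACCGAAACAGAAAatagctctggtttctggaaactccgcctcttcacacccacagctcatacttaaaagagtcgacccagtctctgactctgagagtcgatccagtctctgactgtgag
Oas3: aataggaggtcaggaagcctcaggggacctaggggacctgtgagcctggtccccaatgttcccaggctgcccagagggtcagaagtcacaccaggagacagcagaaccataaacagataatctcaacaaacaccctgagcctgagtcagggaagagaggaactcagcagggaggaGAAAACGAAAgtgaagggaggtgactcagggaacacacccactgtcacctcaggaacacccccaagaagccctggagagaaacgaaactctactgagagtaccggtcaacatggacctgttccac
Isg15 held 3 overlapping matches starting 78 to 66 bases before the gene start, and Oas3 held 1 starting 75 bases before it. The core was in 18 of the 36 interferon-response genes with a window (50%) and in 15 of the 26 called ones (57.7%), against 3.75% of all genes with a window.

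Isg15 encodes a ubiquitin-like protein that is joined to other proteins. Isg15 read 3.92, 3.47 and 3.38 CPM in WT and 26.4, 18.2 and 22.4 CPM in labelled KO on day 3. Isg15 then read 4.77, 4.48 and 3.27 CPM in WT and 56.8, 78.8 and 81.2 CPM in labelled KO on day 6. Labelled-KO values of Isg15 lay above all WT values on both days. The step difference was 1.48 (SE 0.24, edgeR adjusted p = 0.000271), with steps of 0.22 in WT and 1.69 in labelled KO. Oas3 makes the second messenger that activates RNase L on double-stranded RNA. Oas3 read 0.174, 0.217 and 0 CPM in WT and 4.16, 2.64 and 4.26 CPM in labelled KO on day 3. Oas3 then read 0.301, 0.177 and 0.252 CPM in WT and 43.8, 60.9 and 50.2 CPM in labelled KO on day 6. Labelled-KO values of Oas3 lay above all WT values on both days. For Oas3 the step difference was 2.93 (SE 0.81, edgeR adjusted p = 0.0187); with WT close to 0 counts the size is uncertain, and the call was lost without WT day 3 replicate 1 or 2. Oas2 had at most 2 counts in every WT library, and labelled KO was at least 32-fold higher on day 3 and at least 447-fold higher on day 6, against 3 counts per library. Its step difference (edgeR adjusted p = 0.0459) was called among the 12 leave-outs only without replicate 1 of labelled KO on either day, labelled-KO day 3 replicate 2 or WT day 3 replicate 3, and was not called with the replicate block or in the fit to the 12 libraries alone. Oas1a, at 3.43 (SE 0.96, edgeR adjusted p = 0.024), shares sequence with Oas1g, and the counting could split reads between them; its call was lost without WT day 3 replicate 1. The same uncertainty holds for Ifit3 and Ifit3b and for Trim30a and its neighbours. Ifi27l2a, another interferon-induced gene, went from 1.2 ± 0.0261 to 1.48 ± 0.399 CPM in WT and from 20.6 ± 0.571 to 172 ± 15.6 CPM in labelled KO, with a step difference of 2.76 (SE 0.28, edgeR adjusted p = 9.93e-06). Lgals3bp, a secreted glycoprotein and the list's member of highest CPM, rose in both genotypes and by more in labelled KO, with steps of 0.82 in WT and 1.83 in labelled KO and a difference of 1.01 (SE 0.20, edgeR adjusted p = 0.00174).

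The signal carriers Stat2 and Irf9, which act at the response element, widened with step differences of 1.09 and 0.62. Stat2 read 30.4, 31.3 and 31.8 CPM in WT and 67.8, 58.5 and 59.7 CPM in labelled KO on day 3. Stat2 then read 28.5, 24.5 and 29.4 CPM in WT and 110.1, 123 and 115 CPM in labelled KO on day 6. Labelled-KO values of Stat2 lay above all WT values on both days. Irf7, the amplifier of the response, had a step difference of 1.31 (SE 0.24, edgeR adjusted p = 0.000977). Of 17 sensing and signalling genes 1 was higher and 1 lower, a share close to the 12.4% called over all genes, and the median step difference was 0.04. The receptor genes Ifnar1 and Ifnar2 were not called, at step differences of -0.02 and -0.11, and the kinase gene Jak1 was at a step difference of -0.04 (SE 0.11, edgeR adjusted p = 0.862). Tyk2, the receptor's other kinase, was lower in labelled KO on day 3 and no longer called on day 6 (step difference 0.53, SE 0.11, edgeR adjusted p = 0.00302). The DNA sensor gene Mb21d1 (cGAS) closed from above with a step difference of -0.84 (SE 0.23, edgeR adjusted p = 0.0159), a call lost without replicate 3 of labelled KO on either day. Ifnb1, a type I interferon gene, had at most 1 count in any of the 12 libraries.

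Antigen presentation genes followed, with 11 of 15 higher and 0 lower, and a median difference of 0.35 on day 3 and 0.99 on day 6. B2m is the invariant chain of class I molecules. B2m read 262, 279 and 265 CPM in WT and 552, 559 and 579 CPM in labelled KO on day 3. B2m then read 354, 325 and 255 CPM in WT and 1130.3, 1293 and 1284 CPM in labelled KO on day 6. Labelled-KO values of B2m lay above all WT values on both days. For B2m the step difference was 0.92 (SE 0.14, edgeR adjusted p = 0.000162). The class I heavy chain genes H2-K1 and H2-D1, whose sequences are shared within the family, had step differences of 1.14 and 1.18, and the peptide transporter genes Tap1 and Tap2 0.99 and 0.55. The immunoproteasome gene Psmb9 had a step difference of 2.47 (SE 0.71, edgeR adjusted p = 0.0236) at low counts, lost without labelled-KO day 3 replicate 2, labelled-KO day 6 replicate 3, WT day 3 replicate 2 or WT day 6 replicate 1, while 0 of 24 genes of the constitutive proteasome were called by edgeR or DESeq2 (0 at an unadjusted edgeR p under 0.05; median -0.07). Of 16 chemokine and cytokine genes, 5 were higher (31.2%, against 6.36% of all genes) and 2 lower (12.5%, against 5.99%). The higher count was 3 without labelled-KO day 6 replicate 3, and the lower count was 1 to 4 on leaving out single libraries. Cxcl9, a T cell attractant induced by interferon, went from 0.478 ± 0.378 to 0.647 ± 0.229 CPM in WT and from 1.46 ± 0.707 to 11.3 ± 3.98 CPM in labelled KO (step difference 2.52, SE 0.70, edgeR adjusted p = 0.0216; not called without WT day 3 replicate 1 or labelled-KO day 6 replicate 3), and Cxcl5, a neutrophil attractant, closed from above with a step difference of -1.0 (SE 0.22, edgeR adjusted p = 0.00414).

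**Figure D3:**
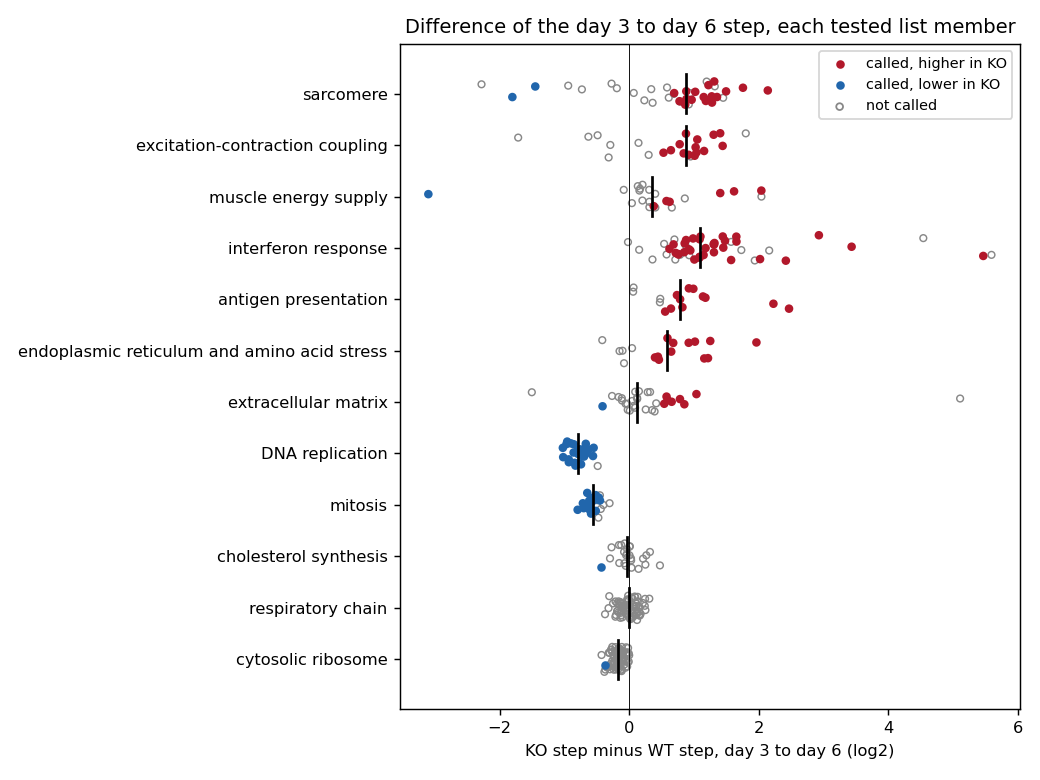
Step difference (log2) of every tested member of 12 lists, filled red where called higher in labelled KO, filled blue where called lower and open where not called; black bars are list medians. Interferon, sarcomere and calcium-release members spread to the right, all 24 called replication genes and all 21 called mitosis genes lie left of 0, respiratory chain members lie on both sides of 0, and all 77 ribosomal members lie left of 0, with 1 called.

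Proliferation genes converged. Labelled-KO libraries stood higher on day 3 and fell further. Of 25 DNA replication genes, 24 had a lower step in labelled KO and 0 a higher one. The gap closed for 22, switched for Rrm2 and opened for E2f1. The median difference was 0.70 on day 3 and -0.11 on day 6, and the median step difference -0.79. Both genotypes fell: the step was called down for 19 of the 25 in WT and for 25 in labelled KO. The list summed to 1256 to 1391 CPM in WT and 1811 to 2184 CPM in labelled KO on day 3, and 936 to 1027 and 868 to 909 CPM on day 6. Of 28 mitosis genes 21 had a lower step and 0 a higher one, with 20 narrowed and 1 closed. Their median was 1.08 on day 3 and 0.56 on day 6, and 27 were still called above WT on day 6. The count of 21 was 12 without labelled-KO day 3 replicate 3 and 13 without WT day 3 replicate 3. The sum of the mitosis list went with it, at 1731 to 2185 CPM in WT and 3830.2 to 4434 CPM in labelled KO on day 3, and 1039.9 to 1276 and 1658 to 1755 CPM on day 6.

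Windows of a gene from each list are shown as examples of the letters counted below: Mcm5 (chr8:75109259-75109558, plus strand) and Cdc20 (chr4:118437294-118437593, minus strand). Capitals mark TTGGCGC, letters of E2F sites, on either strand in Mcm5, and TTTGAA, the cell cycle homology region, in Cdc20; these motifs were chosen after the results were seen.
Mcm5: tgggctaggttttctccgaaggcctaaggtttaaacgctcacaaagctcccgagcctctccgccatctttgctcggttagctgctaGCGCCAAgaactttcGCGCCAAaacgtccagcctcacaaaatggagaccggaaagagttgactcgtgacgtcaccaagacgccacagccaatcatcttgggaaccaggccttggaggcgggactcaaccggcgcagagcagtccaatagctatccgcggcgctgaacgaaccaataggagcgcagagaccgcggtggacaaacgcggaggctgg
Cdc20: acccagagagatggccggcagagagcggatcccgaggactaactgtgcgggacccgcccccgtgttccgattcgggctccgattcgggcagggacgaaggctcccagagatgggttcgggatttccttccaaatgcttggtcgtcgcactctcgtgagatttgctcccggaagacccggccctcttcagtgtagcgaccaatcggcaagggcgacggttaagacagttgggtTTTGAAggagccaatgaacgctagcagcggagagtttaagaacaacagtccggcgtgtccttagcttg
TTGGCGC was in 6 of 20 replication genes with a window (30%), in 4 of 24 such mitosis genes (16.7%) and in 4.98% of all. Another E2F spelling, TTCCCGC, was in 10 of 20 (50%), in 0 of 24 mitosis genes and in 9.64% of all. TTTGAA was in 19 of 24 mitosis genes (79.2%) and in 1 of 20 replication genes (5%), against 14.1% of all.

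Mcm5 is a subunit of the helicase that opens replication origins. Mcm5 read 80.8, 78.1 and 70.8 CPM in WT and 132, 157 and 161 CPM in labelled KO on day 3. Mcm5 then read 45, 53.8 and 55.6 CPM in WT and 58.3, 53.3 and 56 CPM in labelled KO on day 6. Labelled KO lay above WT without overlap on day 3 and the groups overlapped on day 6. The step difference was -0.86 (SE 0.15, edgeR adjusted p = 0.000468), with steps of -0.57 in WT and -1.43 in labelled KO. Rrm2, the ribonucleotide reductase subunit that limits the supply of nucleotides, switched. Rrm2 read 158, 178 and 158 CPM in WT and 172, 213 and 212 CPM in labelled KO on day 3. Rrm2 then read 129, 109 and 135 CPM in WT and 84.8, 80.1 and 77 CPM in labelled KO on day 6. The groups overlapped on day 3 and labelled KO lay below WT without overlap on day 6. For Rrm2 the step difference was -0.90 (SE 0.14, edgeR adjusted p = 0.000156). The S-phase cyclin genes Ccne1 and Ccne2 had step differences of -1.02 and -1.03, and Pcna, the sliding clamp, -0.72. Ccnb2 is a cyclin of mitotic entry. Ccnb2 read 45.4, 44.9 and 35 CPM in WT and 103, 101 and 125 CPM in labelled KO on day 3. Ccnb2 then read 25.4, 28.6 and 27.5 CPM in WT and 43.5, 37.9 and 41.8 CPM in labelled KO on day 6. Labelled-KO values of Ccnb2 lay above all WT values on both days. The gap narrowed from 1.39 on day 3 to 0.60 on day 6, with a step difference of -0.80 (SE 0.14, edgeR adjusted p = 0.000517). Cdc20, the activator of the anaphase ubiquitin ligase, had a step difference of -0.72 (SE 0.14, edgeR adjusted p = 0.00157). Top2a, the member of highest CPM, was not called at a step difference of -0.45 (SE 0.16, edgeR adjusted p = 0.0689); it passed with no filter on low counts, in the fit to the 12 libraries alone, and without labelled-KO day 3 replicate 1 or the day 1 library.

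Of 12 genes of cell cycle exit 3 had a higher step (25%, against 6.36% of all genes), all with gaps that opened. A lower step was called for 1 (8.33%, against 5.99%), and for 0 to 2 on leaving out single libraries. Cdkn1a (p21), the Cdk inhibitor, went from 497 ± 4.73 to 559.6 ± 68 CPM in WT and from 610.3 ± 89.3 to 1145 ± 161 CPM in labelled KO, with a step difference of 0.74 (SE 0.17, edgeR adjusted p = 0.00578). Gadd45a, a growth-arrest gene, rose in both genotypes. Gadd45a read 49.2, 45.1 and 57.1 CPM in WT and 52.1, 44.3 and 46.8 CPM in labelled KO on day 3. Gadd45a then read 103, 83.6 and 73.3 CPM in WT and 188, 236 and 246 CPM in labelled KO on day 6. The groups overlapped on day 3 and labelled KO lay above WT without overlap on day 6. For Gadd45a the step difference was 1.44 (SE 0.18, edgeR adjusted p = 3.17e-05). Rb1, the retinoblastoma protein gene, had a step difference of 0.58, whereas its relative Rbl1 closed from above with a step difference of -0.52 (SE 0.14, edgeR adjusted p = 0.0179), a call lost with limma on either TPM scale and without replicate 3 of WT on either day, labelled-KO day 3 replicate 2 or labelled-KO day 6 replicate 3. Cdkn1b, Cdkn1c and cyclin D3 (Ccnd3) were not called, at step differences of 0.17, -0.67 and 0.05. Of 13 Trp53 targets 2 were higher and 0 lower, 15.4% called against 12.4% over all genes (4 higher with DESeq2, with a mean count of at least 50 or without the day 1 library): Eda2r, a receptor of the Tnf receptor family, at 1.54 (SE 0.20, edgeR adjusted p = 3.71e-05), and Sesn2 at 1.04. Of 18 cell death genes 1 was higher (5.56%, against 6.36% of all genes) and 3 lower (16.7%, against 5.99%). Bcl2l1, which blocks apoptosis, widened upward with a step difference of 0.59 (SE 0.16, edgeR adjusted p = 0.0139).

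Endoplasmic reticulum and amino acid stress genes gained in labelled KO. Of 17 tested, 12 had a higher step and 0 a lower one (1 lower without WT day 3 replicate 2, WT day 6 replicate 1 or the day 1 library). The median genotype difference was -0.19 on day 3 and 0.47 on day 6. Gaps opened for 5, widened for 3, closed for 2 and switched for 2. The window of Asns (chr6:7693160-7693459, minus strand) is shown for its match, in capitals, to TGATGNAA, letters of amino acid response elements searched on both strands and chosen after the results were seen.
Asns: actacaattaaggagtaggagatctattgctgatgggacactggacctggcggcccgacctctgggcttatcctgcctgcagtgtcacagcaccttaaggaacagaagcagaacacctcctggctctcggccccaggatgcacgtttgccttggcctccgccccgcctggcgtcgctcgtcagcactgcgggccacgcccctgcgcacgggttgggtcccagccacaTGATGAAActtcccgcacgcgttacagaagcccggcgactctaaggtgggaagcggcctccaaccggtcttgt
The match began 23 bases before the gene start. These letters were in 4 of the 17 genes of the list (23.5%) and in 2.78% of all genes with a window.

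Asns makes asparagine and is a target of Atf4. Asns read 91.4, 83.8 and 68.4 CPM in WT and 90.8, 54.3 and 62.1 CPM in labelled KO on day 3. Asns then read 85.1, 81.5 and 72 CPM in WT and 155, 169 and 159 CPM in labelled KO on day 6. The groups overlapped on day 3 and labelled KO lay above WT without overlap on day 6. The step difference was 1.25 (SE 0.19, edgeR adjusted p = 0.000153). Trib3, a pseudokinase induced by Atf4 and Ddit3, switched. Trib3 read 27.1, 21.4 and 21.8 CPM in WT and 12.3, 7.95 and 8.66 CPM in labelled KO on day 3. Trib3 then read 41.3, 30.9 and 23.1 CPM in WT and 49.9, 51.1 and 51.6 CPM in labelled KO on day 6. Labelled KO lay below WT without overlap on day 3 and labelled KO lay above WT without overlap on day 6. For Trib3 the step difference was 1.96 (SE 0.25, edgeR adjusted p = 3.52e-05), with steps of 0.44 in WT and 2.4 in labelled KO. Ddit3 (CHOP), a stress transcription factor, went from 17.7 ± 1.03 to 26.7 ± 7.19 CPM in WT and from 12.5 ± 0.958 to 38.1 ± 4.7 CPM in labelled KO, with a step difference of 1.01 (SE 0.20, edgeR adjusted p = 0.00167), and Atf4 itself had a step difference of 0.59 (SE 0.14, edgeR adjusted p = 0.00615). The serine pathway genes Phgdh, Psat1 and Shmt2 widened by 0.92, 0.65 and 0.68. Hspa5, the main chaperone of the endoplasmic reticulum, had a step difference of 0.46, while the chaperone genes Hsp90b1, Pdia4 and Calr were not called, at step differences of -0.08, -0.15 and -0.10.

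Matrix genes were mostly low in labelled KO on both days, and a few gained. Of 31 tested, 7 had a higher step (22.6%, against 6.36% of all genes) and 1 a lower one (3.23%, against 5.99%), with 5 narrowed (Col1a1, Col6a3, Lox, Bgn and Timp3). The median difference was -0.93 on day 3 and -0.80 on day 6. Col1a1 read 5435, 5781 and 5106 CPM in WT and 402, 493 and 246 CPM in labelled KO on day 3. Col1a1 then read 5451, 7581 and 6194 CPM in WT and 903, 952 and 905 CPM in labelled KO on day 6. Col1a1, the main fibrillar collagen chain, rose in labelled KO and its gap narrowed from -3.84 on day 3 to -2.8 on day 6, still with no overlap; the step difference was 1.04 (SE 0.25, edgeR adjusted p = 0.00767). Lox, which crosslinks collagen, had 0.85 and Col1a2 0.54. Mmp2, a matrix protease, was the lower member: it rose in WT and not in labelled KO (step difference -0.41, SE 0.10, edgeR adjusted p = 0.0111). Fn1, the member of highest CPM, was not called at a step difference of 0.12 (SE 0.17, edgeR adjusted p = 0.703). The sums of the list were 51174 to 52404 CPM in WT and 22134 to 26609 CPM in labelled KO on day 3, and 57108 to 65373 and 30436 to 34694 CPM on day 6. Of 15 Tgf-beta and Bmp genes 3 were higher (20%, against 6.36% of all genes) and 0 lower, with 1 gap narrowed and 2 closed. Among the 3 were Inhba, an activin subunit (0.95), and Smad7, an inhibitor of the pathway (0.50).

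The gap of Nos2, the inducible nitric oxide synthase, closed from below. Nos2 read 147, 120.2 and 154 CPM in WT and 27.7, 40.3 and 27.6 CPM in labelled KO on day 3. Nos2 then read 341, 279 and 249 CPM in WT and 293, 299.6 and 293 CPM in labelled KO on day 6. Labelled KO lay below WT without overlap on day 3 and the groups overlapped on day 6. For Nos2 the step difference was 2.17 (SE 0.60, edgeR adjusted p = 0.0186), and the call was lost without labelled-KO day 3 replicate 3, with DESeq2 and with limma on log2(TPM + 0.1). Car6, a secreted carbonic anhydrase, closed likewise from 1.81 ± 0.555 to 5.76 ± 2.52 CPM in WT and from 0.239 ± 0.0922 to 6.33 ± 1.03 CPM in labelled KO (step difference 3.02, SE 0.59, edgeR adjusted p = 0.00158). Hdac9, a class II deacetylase that restrains Mef2, narrowed from below, going from 8.27 ± 0.763 to 7.3 ± 2.11 CPM in WT and from 0.795 ± 0.297 to 3.07 ± 0.354 CPM in labelled KO (step difference 2.12, SE 0.34, edgeR adjusted p = 0.000264). Among downward genes, Aldh3a1, an aldehyde dehydrogenase, switched. Aldh3a1 read 19.8, 19.9 and 22.5 CPM in WT and 33.5, 54.7 and 58.2 CPM in labelled KO on day 3. Aldh3a1 then read 27.3, 35.8 and 27.3 CPM in WT and 20.5, 18.2 and 16.3 CPM in labelled KO on day 6. Labelled KO lay above WT without overlap on day 3 and labelled KO lay below WT without overlap on day 6. For Aldh3a1 the step difference was -1.95 (SE 0.21, edgeR adjusted p = 1.14e-05). Neuronal cytoskeleton genes Nefl and Tubb3 also switched from above to below, with step differences of -1.29 (SE 0.15, edgeR adjusted p = 1.78e-05) and -1.14 (SE 0.17, edgeR adjusted p = 0.000113). Ypel1 and Rundc3a closed from above with step differences of -1.4 and -1.24, and Dkk2, a secreted Wnt antagonist, narrowed with a step difference of -1.67 (SE 0.40, edgeR adjusted p = 0.0071).

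Some of the largest upward step differences were in genes outside the lists and at low levels. Il20rb, a subunit of receptors for interleukins of the Il10 family, went from 0.362 ± 0.182 to 0.202 ± 0.0689 CPM in WT and from 1.38 ± 0.298 to 8.88 ± 2.61 CPM in labelled KO (step difference 3.51, SE 0.56, edgeR adjusted p = 0.000232). H2-T24, a class I-like gene, went from 0.767 ± 0.402 to 0.457 ± 0.128 CPM in WT and from 3.41 ± 1.22 to 20.8 ± 2.0 CPM in labelled KO (step difference 3.34, SE 0.44, edgeR adjusted p = 4.4e-05). Hhatl and Asb16 had step differences of 3.09 (SE 0.64, edgeR adjusted p = 0.00256) and 2.45 (SE 0.61, edgeR adjusted p = 0.0126). P2rx3, an ATP-gated channel, had a step difference of 2.57 (SE 0.60, edgeR adjusted p = 0.00619), lost without WT day 3 replicate 1. Ankrd2, a stretch-responsive protein of the muscle Z-disc and nucleus, fell in WT and rose in labelled KO. Ankrd2 read 15.6, 14.2 and 17.3 CPM in WT and 27.6, 16.9 and 18 CPM in labelled KO on day 3. Ankrd2 then read 7.09, 5.46 and 4.78 CPM in WT and 28.5, 44 and 43.9 CPM in labelled KO on day 6. The groups overlapped on day 3 and labelled KO lay above WT without overlap on day 6. For Ankrd2 the step difference was 2.34 (SE 0.27, edgeR adjusted p = 2.44e-05).

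Several downward calls lay near the floor in a group. Bnc1, a zinc-finger factor, had 270 to 317 counts in every WT library, at most 9 in labelled KO on day 3 and 0 on day 6, where labelled KO was at least 96.2-fold lower against 3 counts per library. Its step difference (edgeR adjusted p = 0.0427) held among the 12 leave-outs only without labelled-KO day 3 replicate 1 or 3, and was not called with the replicate block, in the fit to the 12 libraries alone or with limma on either TPM scale. Scara3, a scavenger receptor gene, went from 13.8 ± 1.26 to 16.2 ± 1.28 CPM in WT and from 0.314 ± 0.161 to 0.0441 ± 0.0764 CPM in labelled KO (edgeR adjusted p = 0.00912; not called with limma on log2(TPM + 1)), and Il2rg, the shared chain of interleukin receptors, from 9.23 ± 0.415 to 7.71 ± 1.06 CPM in WT and from 1.72 ± 0.391 to 0.551 ± 0.126 CPM in labelled KO (step difference -1.37, SE 0.31, edgeR adjusted p = 0.00547). Prl2c2, a proliferin gene with near-identical copies, went from 2.71 ± 0.693 to 12.7 ± 7.17 CPM in WT and from 0.614 ± 0.169 to 0.666 ± 0.24 CPM in labelled KO (step difference -2.11, SE 0.69, edgeR adjusted p = 0.0474); its call was lost with RLE scaling, with the replicate block and without the day 1 library, and held among the 12 leave-outs only without a WT library of day 6 or WT day 3 replicate 3. Adprhl1, of the ADP-ribosylhydrolase family, left the floor in WT: labelled KO was at least 30.6-fold higher on day 3, and the levels went from 0.029 ± 0.0251 to 1.99 ± 0.276 CPM in WT and from 3.99 ± 0.357 to 23.9 ± 4.18 CPM in labelled KO. Its fitted step difference was lower in labelled KO (edgeR adjusted p = 0.00224), and turned to higher with limma on log2(TPM + 1).

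**Figure D4:**
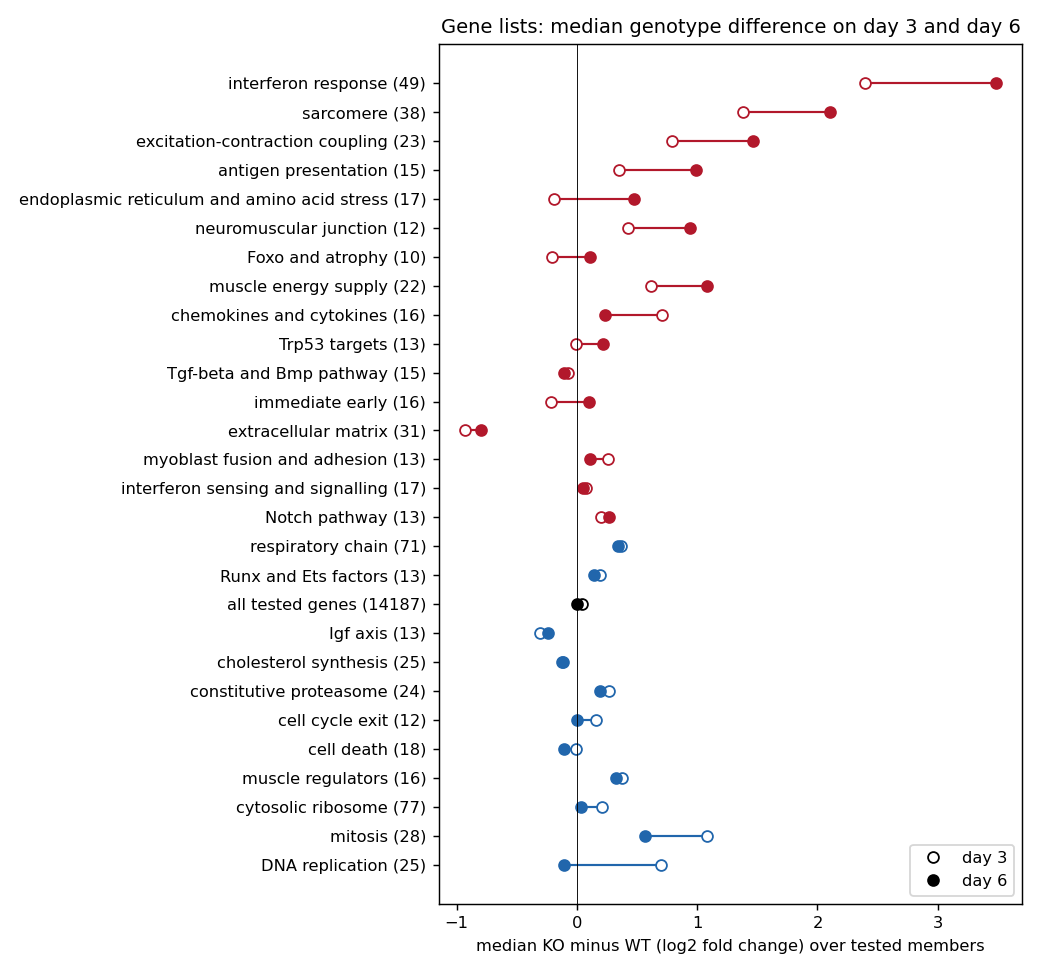
Median log2 fold change of labelled KO over WT on day 3 (open) and day 6 (filled) for 27 gene lists and all tested genes, with the number of tested members in brackets and lists ordered by the median step difference. Interferon-response and sarcomere lists move right, DNA replication and mitosis lists move left, and cholesterol synthesis stays in place.

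Of 25 cholesterol synthesis genes 1 was called, Acat2 (step difference -0.43, SE 0.12, edgeR adjusted p = 0.0201; not called without labelled-KO day 3 replicate 3, labelled-KO day 6 replicate 1 or WT day 6 replicate 2), although the pathway fell from day 3 to day 6 in both genotypes (22 genes in WT and 21 in labelled KO); 3 were higher with DESeq2 or without the day 1 library, and 2 with RLE, with a mean count of at least 50 or in the fit to the 12 libraries alone. Of 77 cytosolic ribosome genes 1 was lower, Rps12 (step difference -0.38, SE 0.11, edgeR adjusted p = 0.0278). All 77 had a step difference below 0, with a median of -0.17. The Rps12 call was lost with no filter on low counts and held among the 12 leave-outs only without replicate 1 or 3 of labelled KO on day 6, labelled-KO day 3 replicate 1 or replicate 3 of WT on either day. The count of lower members was 0 to 17 on leaving out single libraries, with 17 without WT day 6 replicate 3, 3 without labelled-KO day 3 replicate 1, and 4 without the day 1 library. Of 16 immediate early genes 6 were higher (37.5%, against 6.36% of all genes), with Egr2 at 1.21 (SE 0.20, edgeR adjusted p = 0.000446) and Junb at 0.70 (SE 0.18, edgeR adjusted p = 0.0111), both growth-signal transcription factors. Of 13 Runx and Ets factors 2 were higher (15.4%, against 6.36% of all genes) and 1 lower (7.69%, against 5.99%). The higher ones were Runx1 and Etv5 (step difference 0.74, SE 0.14, edgeR adjusted p = 0.00135), and Etv4 was lower (step difference -0.65, SE 0.21, edgeR adjusted p = 0.0398). The Etv4 call held among the 12 leave-outs only without a replicate 1 of labelled KO or a replicate 3 of WT. Of 13 Igf axis genes 3 were higher (23.1%, against 6.36% of all genes) and 1 lower (7.69%, against 5.99%). The higher count was 1 without labelled-KO day 3 replicate 3, labelled-KO day 6 replicate 2, WT day 3 replicate 3 or WT day 6 replicate 1 or 2. The lower count was 0 without labelled-KO day 3 replicate 2 or 3 or WT day 6 replicate 2. Igf2, a growth factor of muscle, went from 3.37 ± 1.22 to 3.4 ± 0.305 CPM in WT and from 18.3 ± 2.46 to 33.5 ± 4.63 CPM in labelled KO (step difference 0.86, SE 0.27, edgeR adjusted p = 0.0362). Its neighbour H19 was not called at a step difference of -0.03 (SE 0.13, edgeR adjusted p = 0.923). The Igf2 call was lost with limma on log2(TPM + 0.1) and held among the 12 leave-outs only without replicate 1 of labelled KO on either day, WT day 3 replicate 1 or 2 or WT day 6 replicate 3. Of 10 Foxo and atrophy genes 3 were higher (30%, against 6.36% of all genes) and 0 lower. The higher count was 1 without labelled-KO day 3 replicate 2 or 3 or WT day 3 replicate 2. Foxo3 was at 0.80 (SE 0.23, edgeR adjusted p = 0.0274), a call lost with limma on either TPM scale and without labelled-KO day 3 replicate 2 or 3, WT day 3 replicate 2, labelled-KO day 6 replicate 1 or WT day 6 replicate 2. Of the same list, the atrophy ligase genes Fbxo32 and Trim63 were not called at step differences of 0.07 and 0.85. Of 13 Notch genes 0 were higher and 2 lower, 15.4% called against 12.4% over all genes, namely Lfng and Hey1 (-0.83 and -0.43; Lfng was not called without WT day 6 replicate 2), and with a library left out in turn 0 or 1 were higher and 0 to 2 lower.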

How the data were processed

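Poly(A) RNA of 23 C2C12 libraries was sequenced, per the labels' protocols. The authors deposited estimated counts per gene symbol (whole numbers) and TPM values. The tools named are Bowtie2 and RSEM with build mm10, per the submitters' processing notes; use of strand is not given in the sources used here. Estimated counts shift reads among similar genes, so paralogs are uncertain. Of 32793 rows, 12326 were 0 in every library; edgeR's filterByExpr (minimum count 10, minimum total 15) left 14187 genes.

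A group-means model over all 23 libraries (8 groups, 15 residual degrees of freedom on the shared spread) was fitted with edgeR 4.0.16 in R 4.3.3 using TMM scaling and the quasi-likelihood F-test, with Benjamini-Hochberg adjustment over 14187 genes and a threshold of 0.05. Contrasts were the step difference, its genotype parts on both days and its steps within genotype. Mean CPM is given with SD (n = 3). The floor was 3 counts per library (0.126 to 0.136 CPM), covering counting error only. Chi-square per degree of freedom between replicates was 2.75 to 22.7, the highest for WT day 6 replicates 2 and 3. For labelled KO on day 6 it was 9.11 and 12.7 between replicate 1 and replicates 2 and 3, and 3.2 between replicates 2 and 3. In a principal component analysis of the 12 libraries the components held 57.7% and 19.8% of variance.

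Members, the 27 gene lists and the rules were chosen with earlier results of these data known. Named genes were Runx1, the 12 highest and 12 lowest step differences among called genes with a group mean of at least 5 CPM, up to 5 per sign with a group at the floor, 3 per pattern and sign, and per list the called extremes and the member of highest CPM. Other genes named, among them Ryr1, Isg15, Stat2, Mcm5, Cdc20, Asns, Slc7a5 and Nqo1, were chosen after their values were seen; some genes that the rule gives are not reported here. The E2F, TTTGAA and amino acid motifs and the lists in the observations were chosen likewise. Checks on simulated counts with 200 changed genes preceded use. In them edgeR recovered 75% of step differences of absolute log2 1. Of the calls, 7.49% were false with edgeR, 11% with DESeq2 and 6.81% with limma. Alternatives were DESeq2 1.42.0, limma 3.58.1 on log2(TPM + 1) or log2(TPM + 0.1), RLE or no composition scaling, other filters (none, or mean count 50), a fit to the 12 libraries alone, a replicate block, stricter thresholds and leaving out each library. Other days were not analysed here.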

Additional observations from a re-analysis of the deposited data

Results flagged for a closer look

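For 18 genes the step from day 3 to day 6 passed the test in both genotypes with opposite signs and the step difference passed as well (edgeR with Benjamini-Hochberg adjustment). In 9 of them labelled KO rose while WT fell. The muscle genes among these, with their log2 steps, were Ankrd2 (WT -1.44, labelled KO 0.90, difference 2.34), Ckm (WT -1.2, labelled KO 0.84, difference 2.04) and Fbxl22 (WT -1.06, labelled KO 0.80, difference 1.86), an F-box protein of the Z-disc. The others were Pkp2 (WT -0.31, labelled KO 0.27, difference 0.58), a desmosome protein, Rassf7 (WT -0.44, labelled KO 0.57, difference 1.01), Slc7a1 (WT -0.35, labelled KO 0.54, difference 0.89), a carrier of cationic amino acids, Parp12 (WT -0.39, labelled KO 0.50, difference 0.88), an antiviral ADP-ribosyltransferase, Tbl2 (WT -0.37, labelled KO 0.21, difference 0.58) and Zfp282 (WT -0.32, labelled KO 0.25, difference 0.57).

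In the other 9 labelled KO fell while WT rose. Enzymes of detoxification and sugar use were Aldh3a1 (WT 0.54, labelled KO -1.41, difference -1.95), Gsta4 (WT 1.15, labelled KO -0.46, difference -1.62), which has close relatives in its family, Nqo1 (WT 0.60, labelled KO -0.50, difference -1.1) and Tkt (WT 0.25, labelled KO -0.32, difference -0.57). The rest were Gas2 (WT 0.41, labelled KO -0.45, difference -0.86), Hmga2 (WT 0.40, labelled KO -0.28, difference -0.69), a chromatin protein of growing cells, Ermp1 (WT 0.31, labelled KO -0.36, difference -0.67), F2r (WT 0.30, labelled KO -0.25, difference -0.55), the thrombin receptor, and Srpx2 (WT 0.30, labelled KO -0.25, difference -0.54). Each of the 18 kept its call on the step difference in the 12 fits that left out a library of the contrast. Whether the opposite steps kept their own calls in those fits was not examined. Some lay near the threshold, such as Slc7a1 in WT (edgeR adjusted p = 0.0403) and Gsta4 in labelled KO (edgeR adjusted p = 0.0472).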

How the results depend on the processing

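There were 24 alternatives. Over the 22 that are not stricter thresholds, 594 list medians were recomputed. The bar for a move was 2 SD of the list's median level between replicates, and 0 passed it. Leaving out 1 library can hardly shift a median that far, so this count does not measure stability. The sarcomere median step difference ranged from 0.74 to 1.15 over the fits that left out 1 of the 12 libraries. Of 144 genes examined singly, 121 passed, and 94 of these kept the call in every alternative apart from the stricter thresholds; of 23 that did not pass, 5 did in at least 1 alternative. Equal replicate numbers did not pair libraries (mean correlations of deviations -0.094 to 0.0206); with the replicate block 1644 genes were called, 1619 of them shared with the 1753. Fitting only the 12 libraries gave 2302 calls and DESeq2 2027. The share of higher calls, 51.5%, was 61.8% with RLE, 61.3% with DESeq2, 63% with a mean count of at least 50 and 60% with limma on log2(TPM + 1), and 48.1% with library size only. Adjusted p under 0.01 left 776 genes (432 higher, 344 lower), 698 in the WT step, and 227 opened, 145 widened, 75 narrowed, 279 closed and 37 switched. An absolute log2 value of at least 1 left 370 (287 and 83), 1579 and 1731 for genotype on day 3 and day 6, 233 and 1389 for the WT and labelled-KO steps, and 90, 122, 37, 81 and 36 in the patterns in that order. The narrowed count was 129 and 112 with limma on log2(TPM + 1) and log2(TPM + 0.1). Without replicate 2 of labelled KO on day 1, added after seeing the data, there were 2837 (1444 and 1393), 2271 in the WT step, and 816, 506, 359, 880 and 237. Leaving out each of the 12 libraries gave 1125 to 1893 calls, 613 to 984 higher and 512 to 909 lower, 762 to 1579 in the WT step, and 321 to 601, 219 to 324, 133 to 211, 331 to 613 and 83 to 140 in the patterns. Adprhl1 and Ckmt2 turned to 0.47 (both) with limma on log2(TPM + 1). The cause of these shifts was not tested. At these depths, genes near the floor (Oas2, Bnc1, Psmb9) have uncertain step differences.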

Other observations

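Several detoxification genes of the kind driven by Nrf2 had a lower step in labelled KO. This list of 22 genes was written after the values above had been seen, so its counts are a description. The step difference was lower in labelled KO for 11 and higher for 1, with a median of -0.41, against 5.99% lower and 6.36% higher over all genes. In WT 9 rose and 0 fell, while 11 fell in labelled KO and 4 rose. Nqo1 read 10.7, 10.9 and 9.98 CPM in WT and 5.39, 7.01 and 7.99 CPM in labelled KO on day 3. Nqo1 then read 18.1, 15.8 and 14 CPM in WT and 4.99, 4.22 and 5.18 CPM in labelled KO on day 6. Labelled-KO values of Nqo1 lay below all WT values on both days. Nqo1, a quinone reductase, had a step difference of -1.1 (SE 0.19, edgeR adjusted p = 0.000467). Gsta4 read 36.8, 40.8 and 48.2 CPM in WT and 25.5, 41.1 and 41.8 CPM in labelled KO on day 3. Gsta4 then read 121, 95.7 and 62.7 CPM in WT and 22.7, 25.9 and 30.1 CPM in labelled KO on day 6. Gsta4, a glutathione transferase, overlapped between genotypes on day 3 and lay lower in labelled KO without overlap on day 6, with a step difference of -1.62 (SE 0.26, edgeR adjusted p = 0.000232). Ftl1, the ferritin light chain, went from 952 ± 40.8 to 1255 ± 176 CPM in WT and from 941 ± 55.5 to 786 ± 41.9 CPM in labelled KO (step difference -0.66, SE 0.15, edgeR adjusted p = 0.00644), and Ugt1a6a, a glucuronosyltransferase that shares exons with its relatives and was not called with limma on log2(TPM + 0.1), had a step difference of -0.65 (SE 0.16, edgeR adjusted p = 0.0101). Hmox1, the heme oxygenase, was the exception, at 0.82 (SE 0.20, edgeR adjusted p = 0.00752), and Gclm, Gsr and Pgd were not called, at step differences of 0.05, -0.04 and -0.05.

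Other genes of the kind driven by Atf4, outside the stress list above, mostly had a higher step. They are amino acid carriers and enzymes, tRNA charging genes, and others such as Gdf15, Nupr1 and Vldlr. Of 22 genes, likewise listed after seeing values, 18 had a higher step in labelled KO and 0 a lower one, with a median of 0.82, against 6.36% higher and 5.99% lower over all genes. In WT 1 rose and 2 fell, and in labelled KO 20 rose and 1 fell. Slc7a5 read 216, 196 and 183 CPM in WT and 202, 142 and 147 CPM in labelled KO on day 3. Slc7a5 then read 180.0, 171 and 177 CPM in WT and 406, 438 and 458 CPM in labelled KO on day 6. The groups overlapped on day 3 and labelled KO lay above WT without overlap on day 6. Slc7a5, a carrier of large neutral amino acids, had a step difference of 1.58 (SE 0.18, edgeR adjusted p = 1.26e-05). Slc6a9, a glycine carrier, and Pycr1, of proline synthesis, switched with step differences of 1.69 and 1.06, and the tRNA charging gene Wars had a step difference of 0.75. A higher step did not always end above WT: the gap of Aldh1l2 closed from below, from -1.57 on day 3 to -0.04 on day 6. Fgf21, a secreted stress hormone of muscle and liver, went from 17.2 ± 2.26 to 12.7 ± 1.0 CPM in WT and from 21.7 ± 8.3 to 53.2 ± 4.89 CPM in labelled KO (step difference 1.73, SE 0.27, edgeR adjusted p = 0.000198).

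The receptor tyrosine kinase gene Ret and Gfra2, a coreceptor of its ligands, both rose in labelled KO. Ret read 5.14, 4.59 and 4.56 CPM in WT and 3.26, 2.1 and 2.15 CPM in labelled KO on day 3. Ret then read 4.73, 4.61 and 6.63 CPM in WT and 12.9, 13.3 and 11.7 CPM in labelled KO on day 6. Labelled KO lay below WT without overlap on day 3 and labelled KO lay above WT without overlap on day 6. Ret switched, with a step difference of 2.17 (SE 0.28, edgeR adjusted p = 3.83e-05). Gfra2 narrowed, going from 16.9 ± 0.502 to 25.9 ± 2.71 CPM in WT and from 1.36 ± 0.294 to 7.0 ± 0.283 CPM in labelled KO (step difference 1.74, SE 0.29, edgeR adjusted p = 0.00038).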
